A study of Mus musculus with 8 samples.

Results

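The genes described here are 40 genes of cell division, 25 that act from the G2 phase through mitosis (G2/M) and 15 that act at the G1/S transition and in DNA replication (G1/S). They were chosen by name, and their values were read from every probe set that the platform annotation gives to exactly 1 of them. Such probe sets existed for 39 of the 40, 87 in all, and all 39 genes passed the filter on low signal, so that 24 G2/M and 15 G1/S genes were among the 13008 genes tested. Ccnb1, which encodes cyclin B1, had no probe set of its own and is not analysed here. Where a gene had several probe sets, the one with the highest mean level was used unless stated otherwise.

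The tissue was the mandibular molar tooth germ of ICR mouse embryos, and RNA from it was hybridised to 8 Affymetrix arrays. Pregnant ICR females, an outbred stock, received a single intraperitoneal injection at embryonic day 14, and tooth germs were taken 24 h later. Each of 4 groups had 2 arrays. The first group received 5E1, an IgG1 monoclonal antibody that binds the Shh protein, at 10 mg/kg, and the second received 40-1a at the same dose of 10 mg/kg, an antibody of that isotype raised to β-galactosidase. The third received cyclopamine, an antagonist of Smo, the membrane protein that passes on the Hedgehog signal, at 10 mg/kg, and the fourth received PBS (1 ml). The agents reached the embryos through the mother, the vehicle of cyclopamine is not given in the sources used here, and no group was left without an injection. The labels call the arrays of a group biological replicates without saying whether they came from different litters, so the p-values below carry only the variation among these particular samples. The comparisons ask whether blocking the Hedgehog signal for 1 day altered the RNA of dividing cells in the tooth germ.

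A cell that enters the cycle first switches on genes for DNA replication, which load and fire the replicative helicase, supply deoxynucleotides and copy the genome, and later a separate set that condenses chromosomes, builds the spindle and splits the cell. In general the first set is driven by E2F factors, and the second is held silent in resting cells by the DREAM complex, which binds a promoter element called the cell cycle homology region (CHR), and is activated together with the factor NF-Y at CCAAT boxes. In the tooth germ at the cap stage dividing cells lie in the dental epithelium and mesenchyme, while the enamel knot, the signalling centre that secretes Shh, is known for having left the cycle.

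The promoters of the 2 gene sets differ in these elements. Promoter windows of the RefSeq table (build GRCm38.p6, 300 bases around each start site) were available for 21 G2/M genes and for 12 G1/S genes, with 13 windows for the latter. A CHR, searched as TTTGAA or TTCGAA on both strands, lay in 16 of 21 G2/M windows (76.2%) and in 2 of 13 G1/S windows (15.4%), against 19.2% of all 32851 windows of the table. An E2F site, searched as TTTGGCGC, TTTCGCGC, TTTCCCGC or TTTGCCGC on both strands, lay in 1 of 21 G2/M windows (4.8%) and in 6 of 13 G1/S windows (46.2%), against 2.3% of all windows. A CCAAT box, searched as CCAAT on both strands, was common to both sets, in 81.0% of G2/M windows and 69.2% of G1/S windows against 37.4% of all windows. A CHR and a CCAAT box stood together in 71.4% of G2/M windows, 15.4% of G1/S windows and 7.5% of all windows. A match describes the letters of the window and is no evidence that a factor binds there, and the arrays do not measure binding. Matches of different kinds or strands may share letters.

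The upstream sequence of 3 G2/M and 2 G1/S genes shows the elements. Each runs 5′ to 3′ up to the base before the start site, with CHR, CCAAT box and E2F matches on either strand in capitals (a CHR reads TTCAAA and a CCAAT box ATTGG on the opposite strand). The stretch of Cdk1, the kinase that drives entry into mitosis, is chr10:69352913-69353062 (minus strand), with 2 CHR, 2 CCAAT box and 1 E2F matches. That of Kif11, the plus-end motor that separates spindle poles, is chr19:37376232-37376381 (plus strand), with 1 CHR and 1 CCAAT box. That of Cdc20, the activator of the anaphase-promoting complex, is chr4:118437344-118437493 (minus strand), with 1 CHR and 2 CCAAT boxes. Those of Mcm5 and Mcm6, subunits of the replicative helicase, are chr8:75109349-75109508 (plus strand) and chr1:128359706-128359855 (minus strand), with 2 and 3 E2F matches, 2 CCAAT boxes each and no CHR.
Cdk1: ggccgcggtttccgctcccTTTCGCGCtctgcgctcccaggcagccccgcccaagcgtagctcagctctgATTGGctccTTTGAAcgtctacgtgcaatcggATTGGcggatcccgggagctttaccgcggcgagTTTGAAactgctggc
Kif11: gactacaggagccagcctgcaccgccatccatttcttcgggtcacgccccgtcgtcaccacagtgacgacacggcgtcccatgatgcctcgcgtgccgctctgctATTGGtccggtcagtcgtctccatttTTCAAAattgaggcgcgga
Cdc20: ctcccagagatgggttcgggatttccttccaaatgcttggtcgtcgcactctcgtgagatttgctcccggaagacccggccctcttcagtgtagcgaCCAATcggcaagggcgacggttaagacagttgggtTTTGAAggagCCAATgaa
Mcm5: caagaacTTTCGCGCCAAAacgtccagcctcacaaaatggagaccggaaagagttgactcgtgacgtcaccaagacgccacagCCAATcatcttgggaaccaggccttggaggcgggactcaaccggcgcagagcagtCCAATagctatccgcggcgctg
Mcm6: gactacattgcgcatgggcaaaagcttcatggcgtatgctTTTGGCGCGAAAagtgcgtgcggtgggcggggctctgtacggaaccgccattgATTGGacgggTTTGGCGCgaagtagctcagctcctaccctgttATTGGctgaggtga

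Hedgehog targets were read first, as a check of the labels. Ptch1, the Shh receptor and a direct target, was lower with 5E1 than with 40-1a by a log2 difference of -2.31 (SE 0.30), and Gli1, a target and transcriptional effector, by -2.22 (SE 0.40), with no overlap of the arrays for either. With cyclopamine against PBS the log2 differences were -0.27 (SE 0.30) for Ptch1 and 0.08 (SE 0.40) for Gli1, neither larger than its standard error. A block of the signal was thus not seen in these 2 genes on the cyclopamine arrays. The values below with cyclopamine describe the injection and not a shown block. In the fit of the 4 group means, no gene of the whole table passed an adjusted p of 0.05 in any comparison (limma with Benjamini-Hochberg adjustment over 13008 genes, smallest adjusted p 0.969 for Ptch1 with 5E1), although 159, 205 and 88 genes had an unadjusted p under 0.05 in 5E1 against 40-1a, cyclopamine against PBS and 40-1a against PBS.

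Cyclopamine replicate 1 stood apart from the other arrays in its control probe sets. The mean over its control probe sets for 18S ribosomal RNA was 2548, where the 7 remaining arrays had 52.9 to 448, and its β-actin 3′ to 5′ ratio was 1.5 against 1.18 to 1.25. It was lower than all other 7 arrays by more than 1.5-fold at 6.45% of the 23594 probe sets above the filter and at 4 of the 77 member probe sets (5.2%). Without it the log2 difference of cyclopamine from PBS changed sign for 15 of the 39 members. The share over all genes was not taken, so this count is no trait of the members. In clusters from genes outside the cell cycle lists, this array joined PBS replicate 2 (correlation over all genes tested 0.9783). Cyclopamine replicate 2 joined the arrays numbered 2 of the antibody groups, and PBS replicate 1 those numbered 1. Differences without cyclopamine replicate 1 thus set 1 array against PBS arrays of other clusters, where cluster and injection cannot be told apart. The values below that lean most on cyclopamine replicate 1 are also given without it. The arrays also differed in tissue makeup, both within and between groups. The skeletal muscle marker score spanned 3.06 log2 units over the 8 arrays (pooled SD within groups 1.277), suprabasal oral epithelium 2.0 (0.835) and dental mesenchyme 1.5 (0.671). The bone and cartilage score, from 6 genes, was -0.34 and -0.30 with 5E1 and -0.14 and -0.07 with 40-1a. With cyclopamine it was 0.32 and 0.03, and with PBS 0.17 and 0.32 (pooled SD within groups 0.121). The summed signal of the mesenchymal markers ran from 34364 to 76174 with 5E1, 46189 to 74389 with 40-1a, 46284 to 69813 with cyclopamine and 70451 to 72750 with PBS. All 14 measured dental epithelial and all 14 measured dental mesenchymal markers were above the filter. The part of tissue makeup in the results below was not tested, and in bulk samples fewer dividing cells and less RNA per dividing cell cannot be told apart.

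The mitosis and replication genes differed little among the 4 injections. With 5E1 against 40-1a the median log2 difference was -0.003 over the G2/M genes and 0.026 over the G1/S genes, beside -0.013 over all genes tested. With cyclopamine against PBS the medians were -0.051 and -0.023, beside 0.022 over all genes. Between the controls, 40-1a against PBS, they were -0.023 and -0.012, beside -0.003. On the probe set used for each gene, the largest difference of any member in these comparisons was a log2 value of -0.62 (SE 0.30), for Tyms between the 2 control injections. Over all member probe sets above the filter it was -1.75 (SE 0.67), for a weak probe set of Cenpf with cyclopamine.

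None of the 39 members passed an adjusted p of 0.05 in any comparison, as was true of all genes in that fit (0% called in each of the 5 contrasts and in the F-test over the 4 groups). At an unadjusted p under 0.05, 1 of 39 members was reached with 5E1 against 40-1a (Kif11, background 1.22% of all genes) and 1 with cyclopamine against PBS (Ccne2, background 1.58%). None was reached for 40-1a against PBS (background 0.677%), for 5E1 and cyclopamine pooled against both controls (background 1.22%) or in the F-test over the 4 groups (background 1.01%). Ccne2 was also reached for the antibody effect minus the cyclopamine effect (background 1.44%). These counts use 1 probe set per gene. With every probe set fitted, both agents against both controls reached weak probe sets of Tpx2 (-0.60) and Cenpa (0.89), beside 353 of all 23594 probe sets. With cyclopamine, further probe sets of Kif11 (-1.10) and Cenpf (-1.75) were reached, beside 624. None passed an adjusted p of 0.05. The arrays of the groups did not overlap for 5 of 39 members with 5E1 against 40-1a (background 19.4%), 9 with cyclopamine against PBS (background 32.2%), 4 with 40-1a against PBS (background 20.5%) and 0 with both agents against both controls (background 1.35%). None of the members differed by 2-fold without overlap, against 0.669%, 0.953% and 0.415% of all genes in the first 3 comparisons.

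The members varied little, and their intervals were narrow for so few arrays. The part of signal level in this was not tested. The 95% interval of the difference lay within 2-fold in either direction for 38 of 39 members with 5E1 against 40-1a (97.4%, against 71.2% of all genes), for 36 with cyclopamine against PBS (92.3%, against 66.6%) and for all 39 with both agents pooled against both controls (100%, against 87.0%). In the pooled comparison it lay within 1.5-fold for 36 of 39 members (92.3%, against 55.3% of all genes). The shares over all genes are not matched to the members on signal level. With a single agent it lay within 1.5-fold for 23 of 39 members in each case, and for the remaining members it reached past 1.5-fold. Pooling assumes a common effect of both agents, whereas the effects on Ptch1 differed by a log2 value of -2.04 (SE 0.43).

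**Figure D1:**
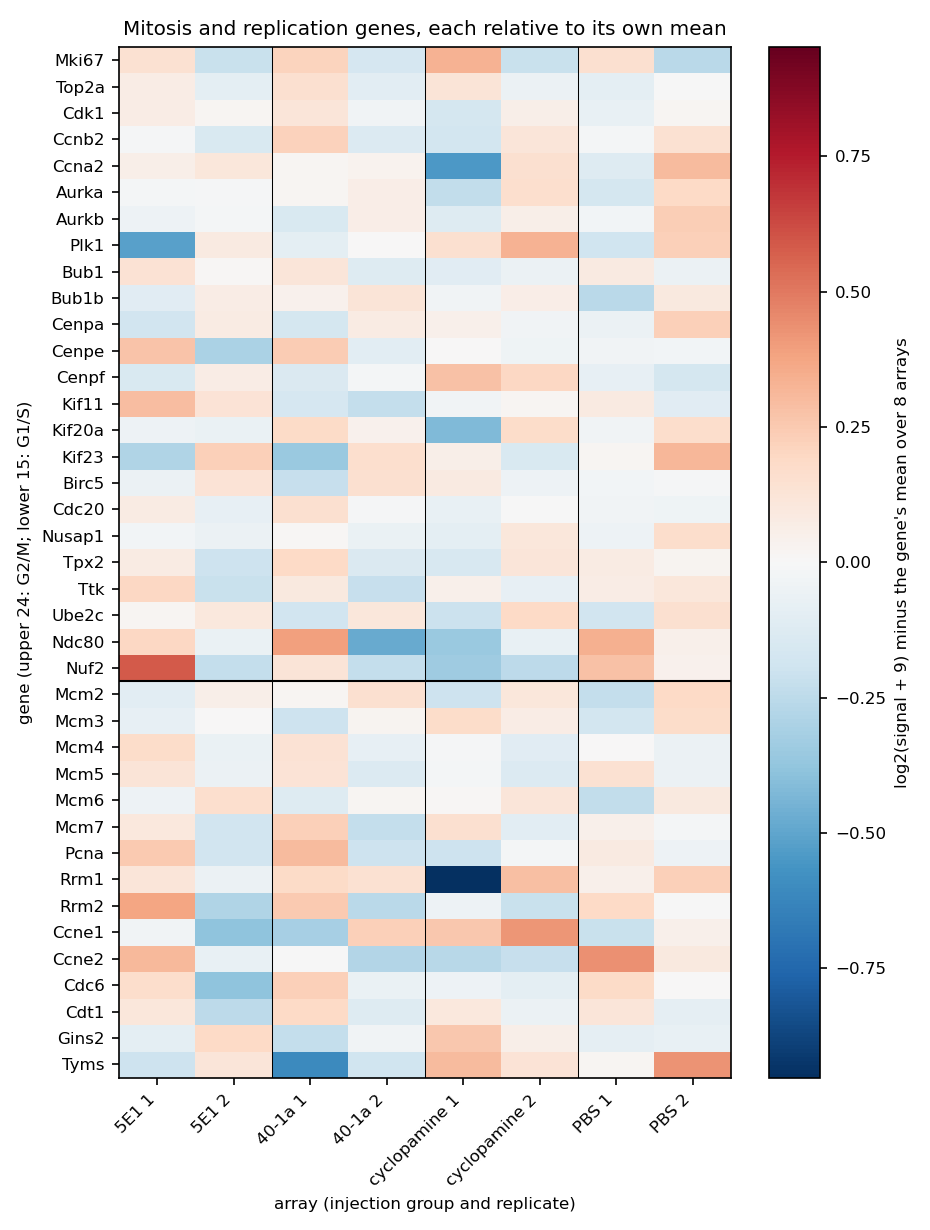
Colour shows log2(signal + 9) minus the gene's mean over the 8 arrays for the 39 member genes (rows, 24 G2/M above the line and 15 G1/S below it) on each array (columns, 2 per injection group). Most cells are pale, the deepest cell is Rrm1 on cyclopamine replicate 1, and no block of colour follows an injection group.

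**Figure D2:**
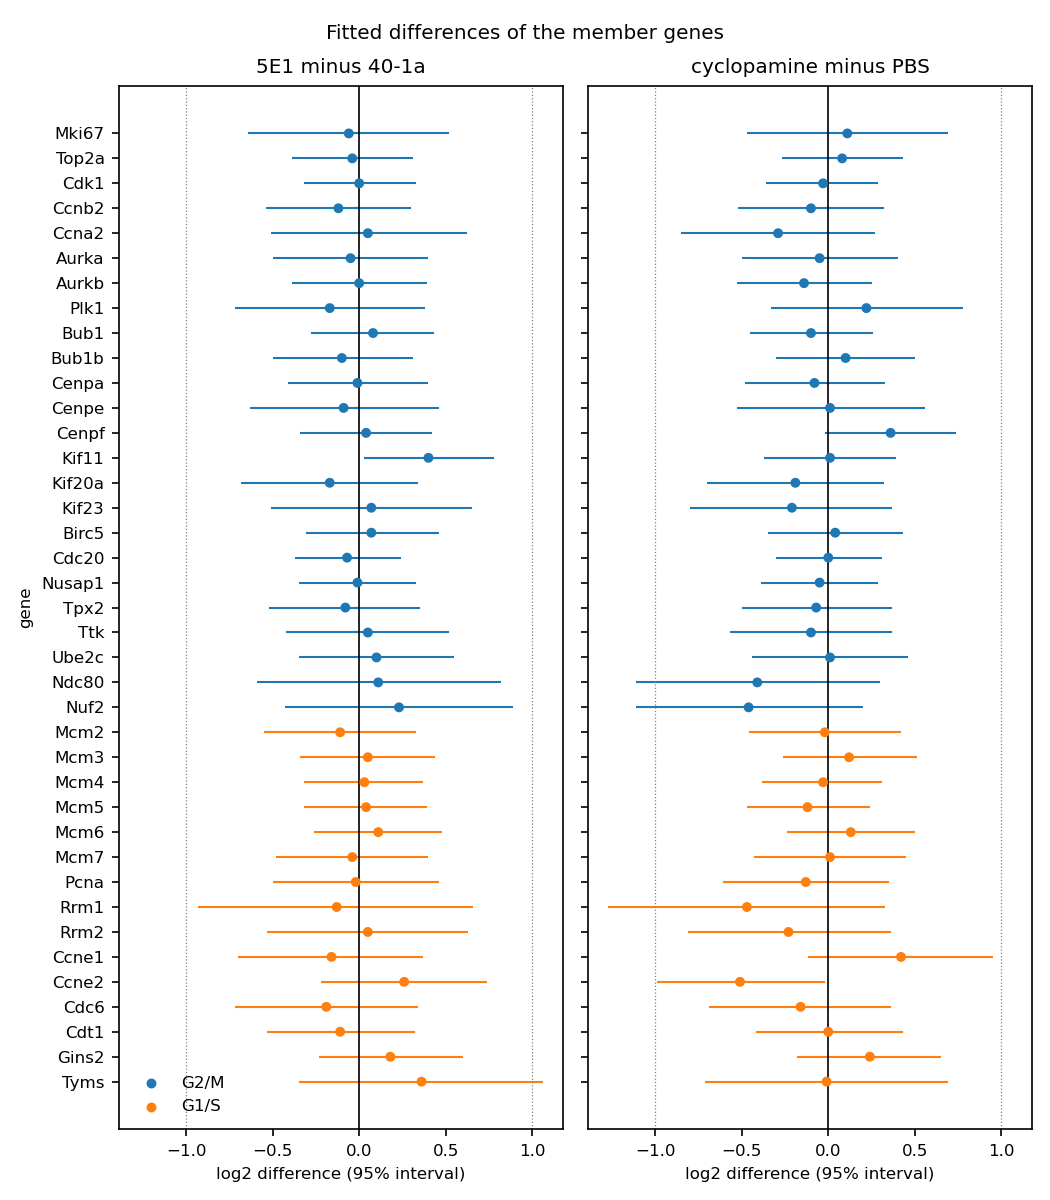
Points are fitted log2 differences and lines their 95% intervals for each member with 5E1 against 40-1a (left) and cyclopamine against PBS (right); dotted lines mark 2-fold. All lines cross 0 except those of Kif11 on the left (0.03 to 0.78) and Ccne2 on the right (-0.99 to -0.02), neither of which passed after adjustment.

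Among chromatin genes of dividing cells, Mki67, the Ki-67 protein that coats mitotic chromosomes and serves as the common marker of cycling cells, had signals of 2991 and 2333 with 5E1, 3141 and 2415 with 40-1a, 3399 and 2340 with cyclopamine, and 3008 and 2267 with PBS. In every group the array numbered 1 was the higher, and the groups overlapped throughout. The group means were 2662 ± 465, 2778 ± 513, 2870 ± 749 and 2637 ± 524 (SD, n = 2). The log2 difference was -0.06 (SE 0.25) with 5E1 and 0.11 (SE 0.25) with cyclopamine, and the latter was -0.16 (SE 0.28) without cyclopamine replicate 1. Top2a, the topoisomerase that untangles sister chromatids, ranged only from 4849 to 5795 over the 8 arrays.

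Among cyclins and mitotic kinases, Cdk1 had signals of 4822 and 4653 with 5E1, 4974 and 4479 with 40-1a, 4079 and 4762 with cyclopamine, and 4368 and 4649 with PBS. The lowest array was cyclopamine replicate 1, the groups overlapped, and the log2 differences were 0.00 (SE 0.14) with 5E1 and -0.03 (SE 0.14) with cyclopamine, with intervals of -0.32 to 0.33 and -0.36 to 0.29. Without that array the latter difference was 0.08 (SE 0.16). Ccnb2, the cyclin B2 partner of Cdk1, spanned 2028 to 2663 and had log2 differences of -0.12 (SE 0.18) and -0.10 (SE 0.18), the latter 0.05 (SE 0.21) without cyclopamine replicate 1. Ccna2, cyclin A2 of S and G2 phase, read 3030 and 3144 with 5E1 and 2959 and 2993 with 40-1a, which did not overlap but differed by a log2 value of only 0.05 (SE 0.24). With cyclopamine its arrays read 1994 and 3241 against 2682 and 3602 with PBS, a log2 difference of -0.29 (SE 0.24) that was 0.06 (SE 0.21) without cyclopamine replicate 1. A second Ccna2 probe set gave 2610 and 2386 against 2647 and 2409, a log2 difference of -0.02 (SE 0.16).

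On the probe sets used, the Aurora kinases ran nearly level. Aurka, which matures the centrosomes, read 1504 and 1511 with 5E1 against 1540 and 1585 with 40-1a, without overlap and with a log2 difference of -0.05 (SE 0.19). Aurkb, the kinase of the chromosomal passenger complex, spanned 1337 to 1736 over all arrays, and its group means with 5E1 and 40-1a were 1440 and 1442. The other Aurkb probe set read 1066.6 and 890.7 with 5E1 against 857.8 and 801.0 with 40-1a. These did not overlap, and the log2 difference was 0.23 (SE 0.18). Birc5, the Aurkb partner survivin, spanned 2957 to 3827, and its lowest and highest arrays were both of the 40-1a group. Plk1, the polo-like kinase of mitotic entry, read 990.1 and 1511 with 5E1, 1334 and 1422 with 40-1a, 1580 and 1794 with cyclopamine, and 1247 and 1663 with PBS. The groups overlapped in both comparisons, and its log2 differences were -0.17 (SE 0.24) and 0.22 (SE 0.24).

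The spindle checkpoint genes Bub1, Bub1b and Ttk, whose kinases delay anaphase until chromosomes are attached, had log2 differences from -0.10 to 0.08 with 5E1 and from -0.10 to 0.10 with cyclopamine. Bub1 read 2134 and 1951 with 5E1, 2103 and 1781 with 40-1a, 1800 and 1868 with cyclopamine, and 2057 and 1867 with PBS. Bub1b spanned 1207 to 1570, with both ends outside the 5E1 group. Ttk with cyclopamine, 988.8 and 904.1, lay below PBS, 1004 and 1029, by a log2 value of -0.10 (SE 0.20). Cdc20 and Ube2c act after the checkpoint is satisfied, as activator and ubiquitin-conjugating enzyme of the anaphase-promoting complex. On the probe sets used, Cdc20 had the smallest spread of all members, an SD of 0.08 log2 units over the 8 arrays, with signals from 5633 to 6589. Its next strongest probe set ran from 2857, on cyclopamine replicate 1, to 3898. Ube2c spanned 3821 to 5005.

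The centromere and kinetochore genes included the members with the widest spread on the G2/M side. Cenpf, a kinetochore protein of late G2, read 940.4 and 1093 with 5E1, 943.3 and 1025 with 40-1a, 1267 and 1196 with cyclopamine, and 986.4 and 925 with PBS. Both cyclopamine arrays were above all 6 others, the log2 difference against PBS was 0.36 (SE 0.16, unadjusted p = 0.0581, limma adjusted p = 0.983), and without cyclopamine replicate 1 it was 0.32 (SE 0.21). A further pair of Cenpf probe sets with lower signals gave log2 differences of -0.26 (SE 0.29) and -1.75 (SE 0.67), so the direction depended on the probe set. The last of these read 20.0 on cyclopamine replicate 1, where the next lowest array had 46.1, and without that array the difference was -1.17.

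Ndc80 and Nuf2 encode partners in the same microtubule-binding dimer of the kinetochore. Ndc80 read 653.1 and 544.9 with 5E1, 748.4 and 404.6 with 40-1a, 442.4 and 540.8 with cyclopamine, and 722.8 and 588.5 with PBS. Nuf2 read 988.3 and 560.4 with 5E1, 715.1 and 560.2 with 40-1a, 517.8 and 550.1 with cyclopamine, and 799.6 and 675.9 with PBS. For Ndc80 the 40-1a arrays were the highest and the lowest of all, and for Nuf2 the highest was 5E1 replicate 1. For both genes the cyclopamine arrays lay below the PBS arrays without overlap. The log2 differences of cyclopamine from PBS were -0.41 (SE 0.30) and -0.46 (SE 0.28), and -0.27 (SE 0.39) and -0.41 (SE 0.37) without cyclopamine replicate 1. Cenpa, the centromeric histone, spanned 2273 to 3028, and Cenpe, a kinetochore motor, spanned 525.9 to 786.5 with both extremes in the 5E1 group. A weaker Cenpe probe set read 167.6 and 159.5 with cyclopamine against 405.3 and 189.0 with PBS, without overlap. The log2 difference there was -0.73 (SE 0.43), or -0.77 without cyclopamine replicate 1, where the probe set used gave 0.01. A weak Cenpa probe set gave a log2 difference of 1.10 (SE 0.54) with cyclopamine, where the probe set used gave -0.08. That weak probe set read 28.2 on PBS replicate 1, where the next lowest array had 82.5.

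Of the spindle and cytokinesis genes, Kif11 had the smallest unadjusted p of any member with 5E1. Its signals were 1267 and 1126 with 5E1, 920.2 and 880.2 with 40-1a, 1009 and 1046 with cyclopamine, and 1092 and 956.1 with PBS. Both 5E1 arrays were above all 6 others, and both 40-1a arrays were below them. The log2 difference with 5E1 was 0.40 (SE 0.16, unadjusted p = 0.0387, limma adjusted p = 1.0), from 0.32 to 0.49 when any of the 4 arrays was left out, with unadjusted p from 0.055 to 0.179 in limma. The other 2 Kif11 probe sets did not show it. They gave log2 differences of -0.10 (SE 0.27) and -0.04 (SE 0.47).

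Kif20a, a kinesin of the central spindle, read 1131 and 1121 with 5E1 against 1333 and 1203 with 40-1a, without overlap and with a log2 difference of -0.17 (SE 0.22). With cyclopamine it read 871.4 and 1326, against 1146 and 1320 with PBS, a log2 difference of -0.19 that was 0.11 (SE 0.20) without cyclopamine replicate 1. Kif23, a kinesin of the cleavage furrow, spanned 1004 to 1609, Tpx2, the activator of Aurora A on the spindle, 1492 to 1950, and Nusap1, a microtubule bundler, 3081 to 3690. On the probe sets used, the groups of these 3 genes overlapped in both comparisons with their own control. A weaker Tpx2 probe set read 157.4 and 115.7 with 5E1 against 255.6 and 180.6 with 40-1a, without overlap. With cyclopamine it read 89.5 and 107.8 against 170.2 and 129.5 with PBS, also without overlap. The log2 differences were -0.64 (SE 0.33) and -0.55 (SE 0.33), where the other Tpx2 probe sets gave -0.25 to -0.07 and -0.36 to 0.18.

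Among replication genes, the helicase subunits Mcm2 to Mcm7 had log2 differences from -0.11 to 0.11 with 5E1 on the probe sets used. With cyclopamine they ran from -0.12 to 0.13 (-0.17 to 0.18 without cyclopamine replicate 1), and none of these probe sets separated the groups. Some other probe sets of Mcm3, Mcm4 and Mcm6 had no overlap of 5E1 with 40-1a, and the remaining ones overlapped. Their log2 differences were 0.23 (SE 0.21) for Mcm4 and 0.14 (SE 0.17) for Mcm6. For Mcm3 they were -0.11 (SE 0.17) and, on a weak probe set, 0.95 (SE 0.45). Mcm5 read 7579 and 6662 with 5E1, 7586 and 6336 with 40-1a, 6861 and 6339 with cyclopamine, and 7677 and 6662 with PBS. Mcm3 spanned 2976 to 3856, Mcm6 5125 to 6745 and Mcm7 7080 to 9701. On the probe sets used, Mcm4 was the steadiest of the G1/S genes, with an SD of 0.10 log2 units and signals from 3741 to 4543. Its other probe set ran from 2753 to 4031. Pcna, the sliding clamp of the DNA polymerases, read 16850 and 12449 with 5E1, 17391 and 12371 with 40-1a, 12334 and 13970 with cyclopamine, and 15042 and 13711 with PBS. The 2 highest arrays were the arrays numbered 1 of the 2 antibody groups, and the log2 differences were -0.02 (SE 0.21) and -0.13 (SE 0.21), the latter -0.04 (SE 0.27) without cyclopamine replicate 1.

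The licensing factors Cdc6 and Cdt1, which load the helicase, and Gins2, a part of the active helicase, had log2 differences from their controls between -0.19 and 0.24. Cdc6 read 905.6 and 614.4 with 5E1, 942.8 and 769.6 with 40-1a, 778.9 and 752.1 with cyclopamine, and 915.4 and 806 with PBS. The cyclopamine arrays were below the PBS arrays without overlap, by a log2 value of -0.16 (SE 0.23). Gins2 with cyclopamine, 1302 and 1130, lay above PBS, 1023 and 1033, by 0.24 (SE 0.18) on its main probe set, or 0.14 (SE 0.22) without cyclopamine replicate 1, and its second probe set gave -0.07 (SE 0.19). Cdt1 spanned 2997 to 4066 with overlap in every comparison.

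For nucleotide supply, Rrm1 and Rrm2 encode the large and small subunits of ribonucleotide reductase and Tyms encodes thymidylate synthase. Rrm1 read 3542 and 3138 with 5E1, 3708 and 3615 with 40-1a, 1682 and 3978 with cyclopamine, and 3368 and 3812 with PBS. The 2 cyclopamine arrays were the lowest and the highest of all 8. The log2 difference with cyclopamine was -0.47 (SE 0.34), and it was 0.15 (SE 0.18) without cyclopamine replicate 1 and -1.09 (SE 0.18) without replicate 2. The second Rrm1 probe set read 3343 on that array, inside the range of the others, and gave 0.18 (SE 0.19). Rrm2 read 6762 and 4257 with 5E1, 6179 and 4354 with 40-1a, 5019 and 4479 with cyclopamine, and 5928 and 5194 with PBS, with a log2 difference of -0.23 (SE 0.25) for cyclopamine. Tyms was measured by a weak probe set with signals from 92.2 to 198.7, and a further probe set that also names a Tyms pseudogene was left out by the rule. Its 40-1a arrays, 92.2 and 126.5, lay below PBS, 147.6 and 198.7. A still weaker Tyms probe set gave -0.15 (SE 0.36) for that comparison, with overlap. With 5E1 the 2 probe sets had opposite signs, 0.36 (SE 0.30) on the one used and -0.43 (SE 0.36) on the weaker.

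The E-type cyclins, which bind Cdk2 to start S phase, went in opposite directions with cyclopamine. Ccne1 read 1192 and 932.1 with 5E1, 978.6 and 1428 with 40-1a, 1457 and 1637 with cyclopamine, and 1055 and 1265 with PBS. Both cyclopamine arrays were the highest of the 8, the log2 difference from PBS was 0.42 (SE 0.23, unadjusted p = 0.111, limma adjusted p = 0.983), and its second probe set gave 0.34 (SE 0.28), or 0.22 without cyclopamine replicate 1. Ccne2 read 1294 and 992.3 with 5E1, 1041 and 857.2 with 40-1a, 864.5 and 892 with cyclopamine, and 1411 and 1114 with PBS. Here the cyclopamine arrays were below both PBS arrays, but the control antibody arrays were as well.

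The log2 difference of Ccne2 with cyclopamine was -0.51 (SE 0.21, unadjusted p = 0.0418, limma adjusted p = 0.983), and -0.49 (SE 0.27, unadjusted p = 0.12) without cyclopamine replicate 1. With 5E1 it was 0.26 (SE 0.21), and the difference between the 2 effects was 0.77 (SE 0.30, unadjusted p = 0.0323, limma adjusted p = 1.0). Leaving out each array in turn gave 0.58 to 0.96 for this difference, with unadjusted p from 0.0185 to 0.114. Between the controls, 40-1a against PBS, Ccne2 differed by a log2 value of -0.40 (SE 0.21), so a gap of similar size stood between groups in which neither agent was given. For Ccne1 the difference between the 2 effects was -0.58 (SE 0.33, unadjusted p = 0.115), from -0.85 without 40-1a replicate 1 to -0.31 without 40-1a replicate 2, and -0.21 when x and s probe sets were left out.

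The G1/S and G2/M genes did not part from each other. The mean deviation of the G2/M genes from their 8-array means was 0.03 and -0.03 on the 5E1 arrays, 0.03 and -0.05 with 40-1a, -0.08 and 0.03 with cyclopamine, and -0.01 and 0.08 with PBS, in log2 units. For the G1/S genes it was 0.08 and -0.09 with 5E1, 0.01 and -0.07 with 40-1a, -0.03 and 0.02 with cyclopamine, and 0.02 and 0.06 with PBS. The range over all 8 arrays was 0.15 and 0.17, and both the lowest and the highest G1/S score belonged to the 5E1 group. Group means of the G2/M score lay between -0.024 and 0.031, with a pooled SD within groups of 0.062, and those of the G1/S score between -0.027 and 0.042, with a pooled SD of 0.07. The G2/M minus G1/S score lay between -0.05 and 0.07 on all arrays. With all probe sets of each gene in place of 1, the score of cyclopamine replicate 1 was -0.20, the lowest of the 8, where that array had been -0.05.

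**Figure D3:**
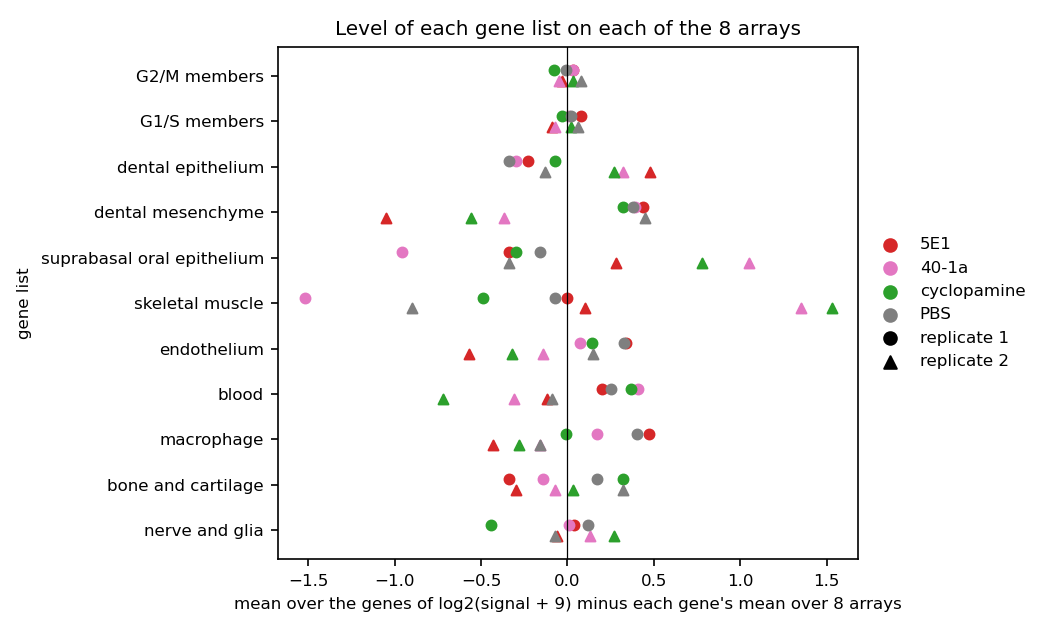
Each symbol is 1 array (colour for the injection, circle for replicate 1 and triangle for replicate 2), placed by the mean deviation of a gene list from its genes' 8-array means, in log2(signal + 9) units. From lowest to highest array the 2 cell division lists span 0.15 (G2/M) and 0.17 (G1/S) units, while markers of tissues span up to 3.06, for skeletal muscle.

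The steadiness of these genes was a property of their values across all arrays. The median SD over the 8 arrays was 0.15 log2 units for the G2/M genes and 0.16 for the G1/S genes, against 0.24 for all genes tested. It was 0.22 for the 10781 genes whose mean level lay in the members' range. That range runs from Tyms (mean log2 level 7.269) to Pcna (13.789) and holds most genes tested, so it is no match of level. The part of signal level in the steadiness was not tested. The highest array exceeded the lowest by a median of 1.36-fold for members, against 1.62-fold for all genes. Rrm1 had the widest spread (SD 0.40), with cyclopamine replicate 1 far below the rest, followed by Tyms (0.33), Nuf2 (0.32) and Ndc80 (0.31). Cyclopamine replicate 1 was the lowest array for 8 of 24 G2/M genes (33.3%, against 13.4% of all genes), among them Ccna2, Aurka, Kif20a and Ube2c, and for 2 of 15 G1/S genes (13.3%). Without it the median G2/M difference of cyclopamine from PBS was 0.03, where it had been -0.05, and the median G1/S difference was -0.07, where it had been -0.02.

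For several replication genes the order of arrays depended on the probe set. In Mcm2, Mcm5, Mcm7 and Cdt1, 1 probe set was higher on the array numbered 1 in all 4 groups, and another probe set of the same gene was lower on it in all 4 groups. Mcm2 read 2365 and 2639 with 5E1, 2571 and 2824 with 40-1a, 2218 and 2735 with cyclopamine, and 2166 and 2893 with PBS on the probe set used. On its other probe set it read 1796 and 1508, 1707 and 1226, 1943 and 1401, and 1618 and 1402 in the same order. The mean difference of array 1 from array 2 was a log2 value of -0.25 on the first and 0.35 on the second. For Cdt1 these differences were 0.26 and -0.19, for Mcm5 0.19 and -0.18, and for Mcm7 0.26 and -0.19.

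Such opposite pairs occurred in 4 of the 26 members with several probe sets above the filter (15.4%) and in 383 of 6233 genes overall (6.1%). In the comparisons of injections the probe sets of a gene gave both signs in 15 of 26 members with 5E1 (57.7%, against 54.8% of the 6233 genes), in 16 with cyclopamine (61.5%, against 50.3%) and in 19 for 40-1a against PBS (73.1%, against 54.0%). The widest gap was 2.12 log2 units, for Cenpf with cyclopamine. Cyclopamine replicate 1 stood low in some of these: Mcm3 read 721.2 there on 1 probe set, against 1150 to 1520 on the other 7 arrays, and Kif11 read 245.9 on 1 probe set, against 634.7 to 1063, and 471.9 on a further one, against 640.9 to 909. The other probe sets of Mcm3 did not place this array low.

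**Figure D4:**
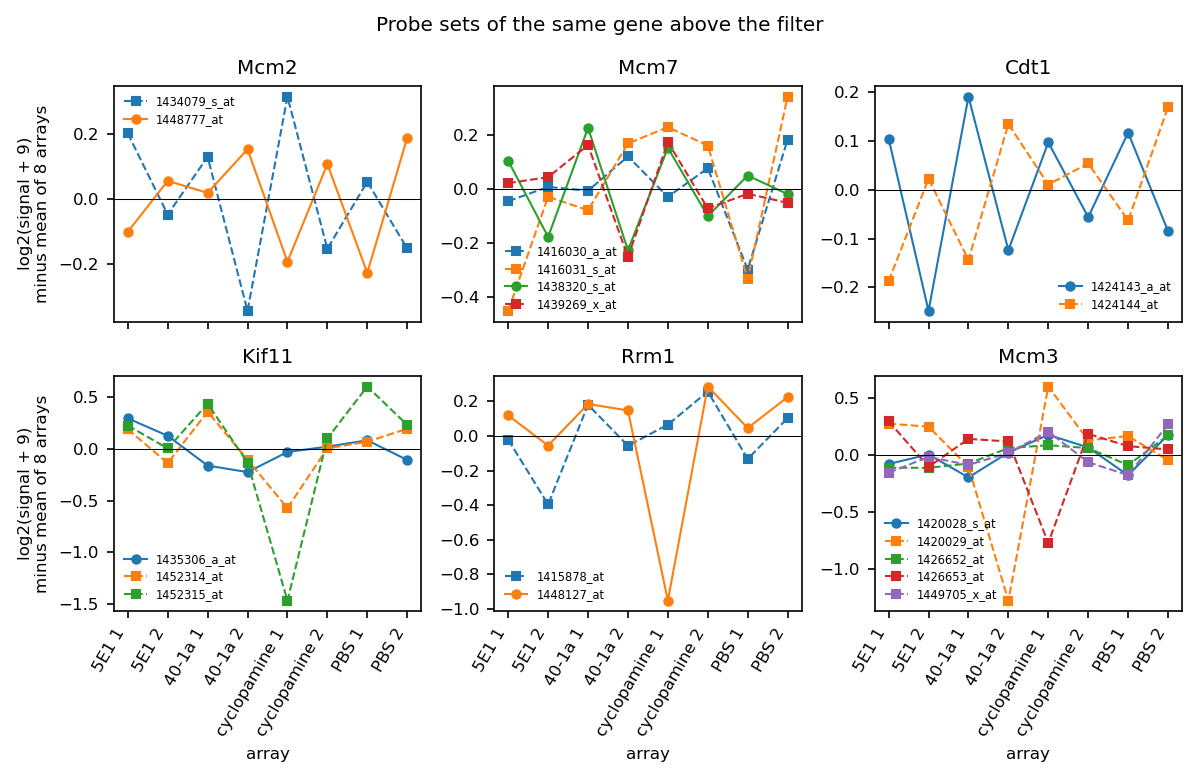
Lines join log2(signal + 9) minus the probe set's mean over the 8 arrays, 1 line per probe set above the filter, for 6 genes (the probe set used for the gene is solid, others are dashed, and the lines carry no order in time). The 2 lines of Mcm2 and of Cdt1 mirror each other across replicate numbers, and 1 line each of Rrm1 and Mcm3 and 2 lines of Kif11 drop on cyclopamine replicate 1.

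Further genes of the cycle were read from longer lists. Of 74 other G2/M genes 71 were tested, and none passed an adjusted p of 0.05 in any comparison. Their median log2 difference was -0.003 with 5E1 and -0.09 with cyclopamine, where 51 of 71 were lower. Over all genes the cyclopamine median was 0.022, with 6098 of 13008 lower. For 40-1a against PBS, where neither agent was given, the list had a median of -0.046, with 44 of 71 lower. Over all genes that median was -0.003, with 6599 of 13008 lower. Cyclopamine replicate 1 had the lowest score of the 8 arrays in this list too (-0.10), and with replicate 2 alone against the PBS mean the median was -0.08, with 44 of 71 lower. Of 71 other G1/S genes 66 were tested, again with none past the threshold, and the medians were 0.01 and -0.025. The members of each list with the smallest p in the pooled comparison were Troap, a spindle protein, at -0.31 (SE 0.18), Psrc1, a microtubule regulator, at -0.19 (SE 0.13), and Cenpm, a centromere protein, at -0.21 (SE 0.16) among G2/M genes. Among G1/S genes they were Atad2, a chromatin ATPase, at -0.23 (SE 0.12), Gmnn, the inhibitor of Cdt1, at 0.21 (SE 0.14), and Cdc25a, the phosphatase that activates Cdk2, at -0.27 (SE 0.17). All 6 are log2 differences of both agents from both controls, with a smallest unadjusted p of 0.102 in limma, for Atad2. With 5E1 and with cyclopamine alone they were -0.28 and -0.34 for Troap, -0.16 and -0.21 for Psrc1, and 0.01 and -0.42 for Cenpm. For Atad2 they were -0.41 and -0.05, for Gmnn 0.29 and 0.13, and for Cdc25a -0.09 and -0.44. Cdc25a read 802.6 on cyclopamine replicate 1 and 1244 on replicate 2, against 1423 and 1306 with PBS.

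Genes that act upstream of these sets were read beside them. Cdkn1a, the Cdk inhibitor p21 that marks the enamel knot, read 1597 and 2883 with 5E1, 997 and 1975 with 40-1a, 1227 and 1665 with cyclopamine, and 949.9 and 1321 with PBS. The groups overlapped in both comparisons, and the log2 differences were 0.61 (SE 0.39) and 0.35 (SE 0.39). The D-type cyclins Ccnd1 and Ccnd2, which carry growth signals to the cycle and are Hedgehog targets in other tissues, differed by 0.01 (SE 0.14) and 0.08 (SE 0.22) with 5E1 and by 0.05 (SE 0.14) and -0.12 (SE 0.22) with cyclopamine. Mycn, a transcription factor that Hedgehog raises in neural precursors, differed by -0.36 (SE 0.32) and -0.34 (SE 0.32). None of these 4 genes passed an adjusted p of 0.05.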

How the data were processed

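RNA was measured in 8 samples, 1 array each, and groups were taken from the labels. The values the authors deposited are linear intensity per probe set, from MAS5 per the submitters' processing notes, with version and scaling target not stated there. MAS5 scales each array by 1 factor. All 8 arrays had a mean of 500.0 after 2% was trimmed at each end, and no scaling was added. Of 45101 probe sets, 34945 had exactly 1 gene in the platform annotation. Values were taken as log2(signal + 9), which understates changes of weak genes, 1 probe set was kept per gene, and genes with a mean under log2 6.12 (a signal of 60.3) were left out. One fit of 4 group means (limma 3.58.1, R 4.3.3, eBayes with a trend) gave differences with SE and 95% intervals, and p-values were adjusted by Benjamini-Hochberg over 13008 genes. The number of arrays, with 4 residual degrees of freedom, limits the precision. The fit was tested on simulated data. Alternatives were other normalisations, pseudocounts, filters, probe set rules and variance models, blocks, and leaving out each array. The members and all gene lists were chosen with earlier results of these data known. All 40 members are accounted for, with every array value for at least 1 gene of each role; the other cell cycle genes named are the 3 of each list with the smallest p in the pooled comparison, and Ptch1, Gli1, Cdkn1a, Ccnd1, Ccnd2 and Mycn were named by rule.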

Additional observations from a re-analysis of the deposited data

Results flagged for a closer look

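The control probe sets for 18S ribosomal RNA, which enter no comparison of injections, had a mean signal of 2548 on cyclopamine replicate 1. On the other 7 arrays, the 4 control injections among them, it lay between 52.9 and 448. On the same array the transferrin receptor control averaged 23.6, against 193 to 263 on the others.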

How the results depend on the processing

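No member passed an adjusted p of 0.05 under any alternative run, the lowest being 0.702, shared by Ccne1, Ccne2, Cenpf and Nuf2 with cyclopamine in the fit with the replicate number as a block. Counts over all genes changed from 0 in some settings. With the replicate block 1 gene was called with 5E1, 1 for both agents pooled and 1 by the F-test, Ptch1 in each case (limma adjusted p 0.00519, 0.0306 and 0.0123), and with the array cluster block, which uses 3 clusters of arrays found from genes outside the cell cycle lists of these same data, 3, 2 and 2, and 3 for the antibody effect minus the cyclopamine effect. The labels do not say that equal numbers share a litter, and same-numbered deviations correlated at 0.323 to 0.591 in 5 of the 6 pairs of groups but at 0.002 between cyclopamine and PBS, so the numbers are not taken to pair the samples, and the block is given here only. The rule of 2-fold without overlap gave 87 genes with 5E1, 124 with cyclopamine, 54 for 40-1a against PBS and 7 pooled.

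Under median centring the median of all genes was 0.06 with 5E1, 0.15 with cyclopamine, -0.09 for 40-1a against PBS and 0.11 pooled, a shift of 0.08, 0.13, -0.08 and 0.10, and the member medians shifted the same way. For G2/M and G1/S genes they became 0.07 and 0.10 with 5E1, 0.08 and 0.11 with cyclopamine, -0.11 and -0.10 for 40-1a against PBS, and 0.07 and 0.06 pooled. With the array cluster block the pooled G1/S median was 0.04. With 1 array left out at a time, the G1/S median with 5E1 ran from -0.09 to 0.09, the G2/M median with cyclopamine from -0.12 to 0.03, the G2/M and G1/S medians for 40-1a against PBS from -0.09 to 0.02 and from -0.14 to 0.05, the pooled G1/S median from -0.11 to 0.05, and the medians of the antibody effect minus the cyclopamine effect from -0.05 to 0.13 (G2/M) and from -0.03 to 0.18 (G1/S).

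The G2/M minus G1/S score depended on the probe sets. With the mean of a gene's probe sets it was 0.06 and -0.02 on the 5E1 arrays, -0.16 on cyclopamine replicate 1 and 0.04 on PBS replicate 1. Without x and s probe sets it was -0.04 on 40-1a replicate 2, and 0.02 and -0.04 on the PBS arrays. With every probe set it was 0.10 and -0.03 with 5E1, 0.08 on 40-1a replicate 1, -0.20 on cyclopamine replicate 1, and 0.09 and -0.05 with PBS. The cause was not tested. The sign of a member's difference was kept under every alternative run for 7 of 39 members with 5E1, 7 with cyclopamine and 6 pooled. The shares over all genes were not taken, so these counts are no trait of the members. The 2 arrays in each group limit all of these values.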
